A study of Homo sapiens with 18 samples.

Results

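The 40 genes described here are 26 genes of glycolysis and its pyruvate and lactate branch and 14 genes of the hypoxia response, chosen by name from a fixed list and read from the gene rows of 3 expression tables. The list was drawn up with earlier results of these data known, so its shares beside those of all genes are a description. All 40 had a gene row for H460 and H2023, among 16424 and 18140 gene rows, and 39 had one for ABC-1, among 16910. CA9 was not analysed in ABC-1. The glycolytic list runs from the glucose transporters SLC2A1 and SLC2A3 to the pyruvate dehydrogenase kinases PDK1 and PDK3. The hypoxia list holds HIF1A and EPAS1, the prolyl hydroxylases EGLN1 and EGLN3, and 10 genes known as targets of hypoxia-inducible factors (HIF).

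RNA sequencing compared 3 human lung cancer lines after 24 h in CCS1477 or in its solvent DMSO, with 3 libraries per group and 18 in all. CCS1477 (inobrodib) occupies the bromodomain of the coactivators p300 and CBP, whose cysteine-rich domain is also a docking site of HIF-alpha subunits. The groups were H460 with CCS1477 and with DMSO, H2023 with CCS1477 and with DMSO, and ABC-1 with CCS1477 and with DMSO. H460 is a large cell carcinoma line and H2023 is labelled squamous, both described as NRF2-activated, and ABC-1 is an adenocarcinoma line described as wildtype. No genotype beyond these words is given, and no hypoxic or glucose-limited group was part of the design. The dose is taken as 5 µM, as the sample descriptions state it; the text for the whole series has 5 mM. Whether the 3 replicates came from separate cultures is not said; the p-values therefore rest on a spread between libraries that may be technical only.

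The depth was 26652298 to 33568182 reads per H460 library, 15352631 to 18261159 per H2023 library and 14483979 to 17483292 per ABC-1 library. Replicate 1 of H460 with CCS1477 stood apart. It had 0.795% of its reads in mitochondrial genes, against 1.77 to 2.06% in the other H460 libraries, and its squared differences from its own replicates were 37.1 and 40.7 times those of counting error alone, where all other replicate pairs gave 2.31 to 7.64. Counts for H460 are therefore also given without it. The keratin genes KRT8, KRT18 and KRT19, markers of epithelial cells, averaged at least 54.6 CPM (reads scaled to the library total) in every group, while the epithelial marker EPCAM averaged 0.443 and 0.659 CPM in CCS1477 and DMSO libraries of H460. The squamous label of H2023 was not borne out by its markers. TP63 averaged 0.420 and 1.84 CPM in its CCS1477 and DMSO libraries, and KRT5, KRT6A, DSG3 and SOX2 were not analysed there. SOX2 averaged 66.7 and 149 CPM in CCS1477 and DMSO libraries of ABC-1, the adenocarcinoma line, where the lung adenocarcinoma marker NKX2-1 averaged 0.624 and 1.34 CPM in CCS1477 and DMSO libraries. The leukocyte and endothelial markers PTPRC and PECAM1 averaged at most 1.58 CPM where they were analysed. Some markers moved with treatment, and not in 1 direction. The epithelial cadherin CDH1 averaged 8.11 CPM in CCS1477 libraries and 47.4 CPM in DMSO libraries of H2023, but 315 and 244 CPM in those of ABC-1. The collagen COL1A1, a marker of mesenchymal cells, averaged 23.0 and 7.53 CPM in CCS1477 and DMSO libraries of ABC-1. In the same order COL1A1 averaged 4.00 and 7.79 CPM in H460 and 6.39 and 6.94 CPM in H2023, where it did not pass the test. Their part in the results was not tested.

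Glycolysis splits glucose into pyruvate. Glucose enters through SLC2A transporters, is trapped by hexokinase and committed by phosphofructokinase, and the lower enzymes, from aldolase to pyruvate kinase, return ATP. Lactate dehydrogenase turns pyruvate into lactate, which leaves through the SLC16A carriers, while pyruvate dehydrogenase kinases keep pyruvate out of mitochondria. HIF-1 and HIF-2 pair an oxygen-labile alpha subunit (HIF1A or EPAS1) with ARNT and bind the core letters ACGTG or GCGTG near their targets. In oxygen, EGLN enzymes hydroxylate the alpha subunit, which marks it for VHL-directed destruction, so HIF activity is set mainly on the protein and HIF1A mRNA is not a measure of it. Many glycolytic genes are HIF targets, and hypoxia-responsive glycolysis is a known trait of lung tumours.

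The promoters of the members were searched for the HIF core letters ACGTG and GCGTG. RefSeq gave a promoter of 300 bases (250 before and 50 after the start, build GRCh38.p14) for 34 of the 40 genes; SLC2A3, PFKFB2, SLC16A1, BNIP3L, VEGFA and NDRG1 had no entry. ACGTG or GCGTG, counted on both strands, was present in 25 of the 34 (73.5%), in 16 of 23 glycolytic genes (69.6%) and in 9 of 11 hypoxia genes (81.8%), against 48.4% of all 35116 promoters of this length. ACGTG alone was in 41.2% of the members and 21.4% of all promoters. The letters CACGTG hold ACGTG on both strands and count as 2 overlapping matches. The 250 bases before the start are printed for 3 genes that rose in every line (ALDOC, ENO2, BNIP3), for LDHA, which fell in every line, and for EGLN1, which went in opposite directions. All are written 5′ to 3′ on the gene's own strand, with matches to the motif on either strand in capitals. ALDOC lies at chr17:28576896-28577145 on the minus strand, ENO2 at chr12:6914330-6914579 on the plus strand, BNIP3 at chr10:131981924-131982173 on the minus strand, LDHA at chr11:18394313-18394562 on the plus strand and EGLN1 at chr1:231422288-231422537 on the minus strand.
ALDOC: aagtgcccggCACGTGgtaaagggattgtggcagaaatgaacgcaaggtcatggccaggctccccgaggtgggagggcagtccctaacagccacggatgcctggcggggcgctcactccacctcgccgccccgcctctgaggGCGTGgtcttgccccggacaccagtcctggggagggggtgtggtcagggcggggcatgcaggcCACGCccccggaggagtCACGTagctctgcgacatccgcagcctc
ENO2: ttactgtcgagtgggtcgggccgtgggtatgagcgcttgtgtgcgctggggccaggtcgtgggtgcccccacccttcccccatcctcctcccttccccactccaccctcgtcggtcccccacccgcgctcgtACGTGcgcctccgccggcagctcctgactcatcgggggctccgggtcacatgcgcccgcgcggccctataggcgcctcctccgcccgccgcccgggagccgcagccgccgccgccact
BNIP3: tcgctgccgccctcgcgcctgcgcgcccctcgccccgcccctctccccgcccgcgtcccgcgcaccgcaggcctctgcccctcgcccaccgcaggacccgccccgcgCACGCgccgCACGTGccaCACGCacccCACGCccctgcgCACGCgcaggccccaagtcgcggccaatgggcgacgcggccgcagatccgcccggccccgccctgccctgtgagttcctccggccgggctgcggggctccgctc
LDHA: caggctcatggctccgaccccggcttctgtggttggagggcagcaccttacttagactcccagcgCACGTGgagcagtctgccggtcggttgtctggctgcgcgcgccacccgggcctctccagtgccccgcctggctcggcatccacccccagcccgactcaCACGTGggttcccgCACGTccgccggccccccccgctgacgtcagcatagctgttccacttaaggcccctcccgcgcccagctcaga
EGLN1: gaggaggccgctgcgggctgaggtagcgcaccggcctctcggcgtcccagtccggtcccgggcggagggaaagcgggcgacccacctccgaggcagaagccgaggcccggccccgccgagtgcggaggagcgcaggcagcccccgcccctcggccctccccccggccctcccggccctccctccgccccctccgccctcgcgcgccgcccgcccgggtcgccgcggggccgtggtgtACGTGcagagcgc
These stretches hold 5 matches in ALDOC, 1 in ENO2, 6 in BNIP3, 5 in LDHA and 1 in EGLN1. These genes were printed for the direction of their change, and the number of matches was not tested against the change. They do not stand for all genes that moved. SLC16A3, which fell in every line, and TPI1 and P4HA2, which rose in every line, had no match. PDK1, which went in opposite directions, had none either. A match is a description of the letters and not of binding, which was not measured.

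In untreated cells the lower glycolytic enzymes were the most abundant members. Levels are compared between genes in TPM (reads scaled to the length of all annotated exons of a gene and to library total). Values are mean ± SD of 3 DMSO libraries. Annotated exons that the cells may not use count toward this length, so the order of genes depends on it. GAPDH, the dehydrogenase of glyceraldehyde phosphate, stood first in every line, at 3868 ± 168 TPM in H2023, 3580.3 ± 180.5 in H460 and 2013 ± 89.3 in ABC-1. ENO1, the common enolase, followed in H460 at 1014 ± 56.4 and H2023 at 1794 ± 71.5 TPM, while in ABC-1 the aldolase ALDOA (612 ± 18.8 TPM) and ENO1 (561 ± 34.1 TPM) came next. In TPM the mutase PGAM1 and the pyruvate kinase PKM could not be separated beyond their spread in H460 or ABC-1. They were at 569 ± 33.2 and 547 ± 29.5 TPM in H460 and 474 ± 19.4 and 462 ± 23.8 TPM in ABC-1. In CPM (reads without the length) PKM was above PGAM1, at means of 2439 and 761 in H460 and 1357 and 417 in ABC-1. LDHA and LDHB, the 2 subunits of lactate dehydrogenase, were level in H460 at 449.8 ± 26.1 and 435 ± 35.4 TPM. In TPM, LDHB exceeded LDHA in H2023 (795 ± 39.9 against 469.5 ± 19.4) and in ABC-1 (373 ± 12.4 against 260.5 ± 11.2). The lengths used were 6210 bases for LDHA and 2983 for LDHB. In CPM the order was reversed, with LDHA above LDHB. Their means were 1454 and 675 CPM in H460, 1215 and 988 in H2023, and 554 and 381 in ABC-1. The most abundant hypoxia gene was HIF1A in H460 (109 ± 10.1 TPM) and H2023 (257 ± 16.3 TPM) and EPAS1 in ABC-1 (247 ± 7.78 TPM).

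The lines differed in the level of single members of the same enzyme families. Levels between lines are given in CPM, side by side and with no test, since each table was scaled on its own. Of 26 glycolytic genes, 12 were highest in H460 with no overlap of DMSO libraries, 8 in H2023 and 4 in ABC-1; of 12 hypoxia genes compared, 3, 4 and 5 were. Of all 13098 genes compared, H460 was highest in this way for 21.2%, H2023 for 27.5% and ABC-1 for 30.2%. The 2 facilitative transporters were spread unevenly. SLC2A1 averaged 127, 31.3 and 53.6 CPM in DMSO libraries of H460, H2023 and ABC-1 on its gene row, which held the smaller part of its reads. SLC2A3, the high-affinity neuronal-type carrier, had 468, 478 and 457 CPM in the ABC-1 DMSO libraries, 83.4, 80.1 and 88.1 CPM in H460 and 0.168, 0.602 and 0 CPM in H2023, where it was at or near 0. HK2, the inducible hexokinase, had 72.7, 77.3 and 71.8 CPM in H460 DMSO libraries, against 3.7, 5.04 and 4.16 CPM in H2023 and 8.28, 10.2 and 9.6 CPM in ABC-1. Per length, HK1 was above HK2 in DMSO libraries of every line. Their means were 44.3 and 23.4 TPM in H460, 121 and 1.71 TPM in H2023, and 74.8 and 4.5 TPM in ABC-1. PFKP, the platelet-type phosphofructokinase, was at 196, 201 and 199.7 CPM in H460 and 234, 244 and 241 CPM in H2023 but at 1.02, 0.511 and 0.69 CPM in ABC-1. The liver-type PFKL was at 141, 142 and 134 CPM in ABC-1, and per length it led there, at 45.5 ± 2.11 TPM against 0.446 ± 0.155 TPM for PFKP.

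Lactate export and pyruvate control differed as well. SLC16A3, the lactate exporter of glycolytic cells, averaged 203 ± 3.5 CPM in H460 and 129 ± 4.52 CPM in H2023, against 17.8 ± 0.665 CPM in ABC-1 (SD, n = 3 DMSO libraries each). PDK1 averaged 49.4 ± 1.32, 2.84 ± 0.509 and 14 ± 1.34 CPM in H460, H2023 and ABC-1. Among hypoxia genes, BNIP3, a mitophagy receptor, averaged 128 ± 6.11, 81.6 ± 0.995 and 10.7 ± 1.27 CPM in that order of lines, while its relative BNIP3L ran the other way at 16.9 ± 1.05, 25.2 ± 0.673 and 57.9 ± 1.77 CPM. EPAS1 averaged 99.2 ± 0.885, 435 ± 12.9 and 618 ± 13.9 CPM. CA9, the carbonic anhydrase used as a marker of hypoxic cells, averaged 0.665 ± 0.156 CPM in H460 and 0.409 ± 0.221 CPM in H2023, and ANKRD37, an ankyrin-repeat gene induced by HIF-1, was under 1 CPM in every DMSO library.

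**Figure D1:**
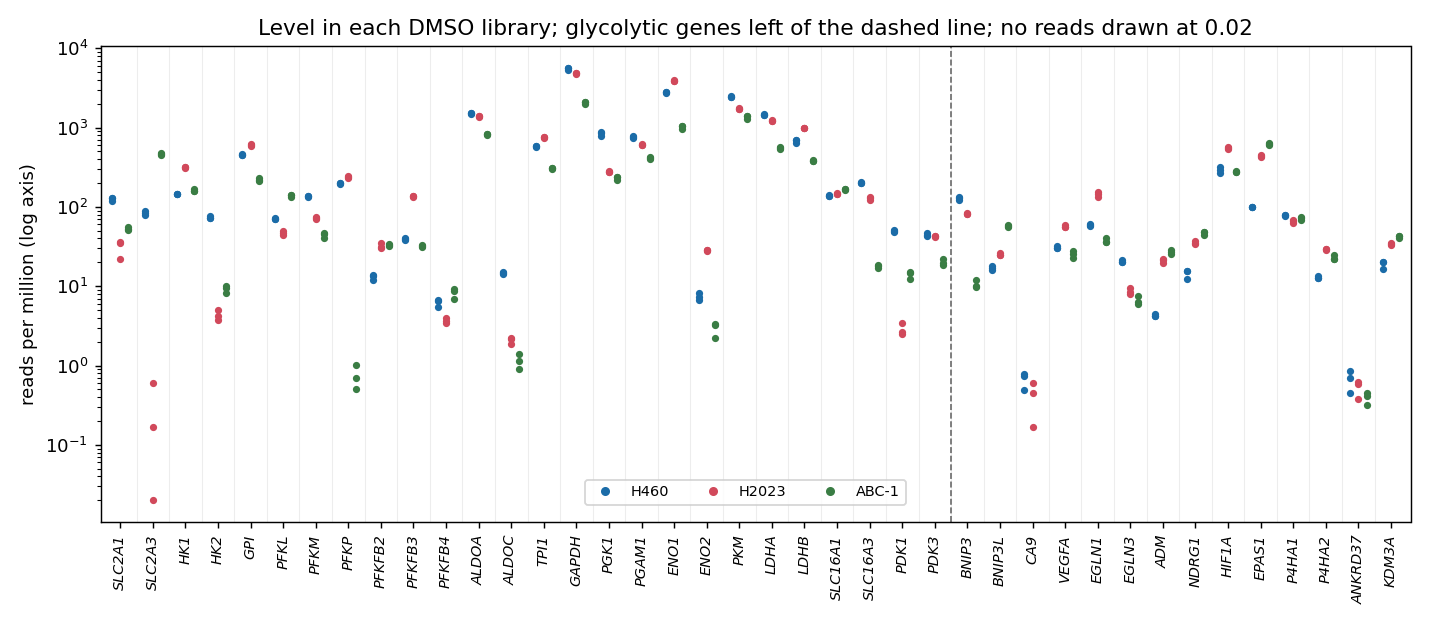
CPM (log axis) of each of the 40 genes in the DMSO libraries, 3 points per line. GAPDH is highest in each line, and the lines lie far apart for SLC2A3, HK2, PFKP, ENO2, ALDOC, PDK1 and BNIP3. CA9 has no points for ABC-1, and a library with no reads is drawn at 0.02.

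CCS1477 moved most of these genes, but neither list moved one way. Changes are log2 changes of CCS1477 over DMSO on the deposited log2 scale, with the SE of limma-trend and p-values adjusted over all genes of the line (threshold 0.05). In H460, 9 of 26 glycolytic genes rose and 11 fell, and of 12 hypoxia genes tested 6 rose and 3 fell, where 56.1% of all 13516 genes passed the test (28.2% higher, 27.9% lower). In H2023, 8 of 25 glycolytic genes rose and 11 fell, and all 12 hypoxia genes tested passed, 8 higher and 4 lower, against 60.6% of 14572 genes (28.6% higher, 31.9% lower). In ABC-1, 13 of 26 glycolytic genes rose and 9 fell, and of 13 hypoxia genes 8 rose and 3 fell, against 66.1% of 13543 genes (33.5% higher, 32.6% lower). These counts include PFKP and ANKRD37, which passed the filter of 1 CPM in 3 of 6 libraries in ABC-1 through the CCS1477 group; without them 12 of 25 glycolytic and 7 of 12 hypoxia genes rose. CA9 and ANKRD37 in H460, and these 2 with SLC2A3 in H2023, were below 1 CPM in too many libraries to be tested.

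Median changes were small beside those of single genes. They were -0.078, 0.092 and 0.12 for the glycolytic genes and 0.24, 0.37 and 0.27 for the hypoxia genes tested in H460, H2023 and ABC-1, against 0.00092, -0.0089 and 0.014 over all genes. Without the H460 library that stood apart, 16 members rose and 15 fell in H460, in place of 15 and 14. The share over all genes without that library is not given here. Scaled by library totals, 17 rose and 9 fell there, and over all genes 4636 rose and 3063 fell in place of 3811 and 3773. That scaling lies 0.052 to 0.073 above the deposited one on the log2 scale, so a ratio of CPM runs slightly above the log2 change.

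**Figure D2:**
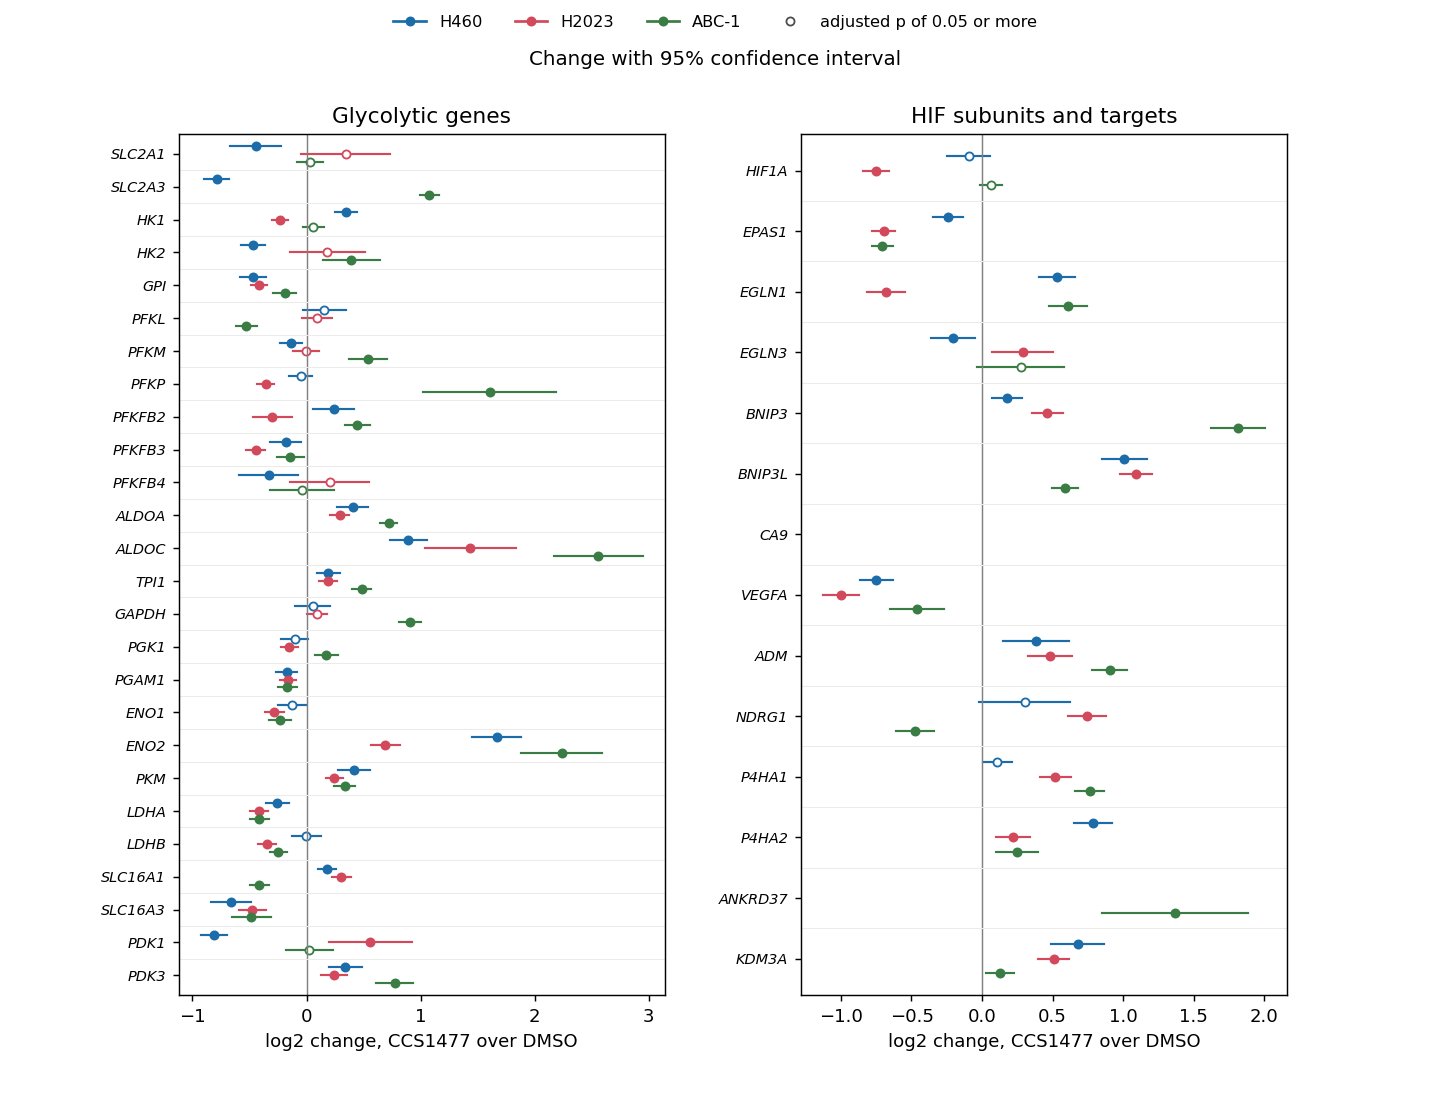
The log2 change of CCS1477 over DMSO with its 95% confidence interval for each tested gene, 1 point per line; open points did not pass the threshold. ENO2, ALDOC and BNIP3L lie to the right of 0 and SLC16A3, VEGFA and EPAS1 to the left in all 3 lines, while SLC2A3, PDK1, EGLN1, SLC16A1 and NDRG1 lie on both sides.

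Of 37 genes tested in all 3 lines, 11 passed as higher in each line (29.7%, against 14.7% of all 11757 genes tested in all 3), 7 as lower in each (18.9% against 12.7%) and 11 in opposite directions in a pair of lines (29.7% against 12.2%). Because the members were chosen with earlier results of these data known, these shares describe the list and do not test it. ALDOA, ALDOC, TPI1, ENO2, PKM and PDK3 of the glycolytic list and BNIP3, BNIP3L, ADM, P4HA2 and KDM3A of the hypoxia list passed the test as higher in each line. GPI, PFKFB3, PGAM1, LDHA, SLC16A3, EPAS1 and VEGFA passed as lower in each. Opposite calls were made for HK1, HK2, PFKM, PFKP, PFKFB2, PGK1, SLC16A1, PDK1, EGLN1, EGLN3 and NDRG1, and also for SLC2A3, which was tested in H460 and ABC-1. The count of opposite calls includes PFKP, which passed the filter in ABC-1 through the CCS1477 group. Its opposite call is therefore a description.

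Among the glucose transporters, SLC2A3 (chr12:7919230-7936275, minus strand, GENCODE 29 on GRCh38) split the lines. In ABC-1 it had 1036, 1017 and 1035 CPM in CCS1477 libraries, against 468, 478 and 457 CPM in DMSO libraries, a log2 change of 1.077 ± 0.037 (SE, limma adjusted p = 8.58e-10). In H460 it had 52.3, 49.7 and 51.1 CPM in CCS1477 libraries, against 83.4, 80.1 and 88.1 CPM in DMSO libraries, a log2 change of -0.787 ± 0.049 (SE, limma adjusted p = 7.58e-06). The replicates did not overlap in either line, and the level at which each began differed too. Its near copy SLC2A14 was not analysed here. In H2023 the 6 libraries held 0 to 0.602 CPM and no test was made.

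SLC2A1 (chr1:42925375-42959176, minus strand), the basal glucose carrier, is a gene whose reads were mostly elsewhere. In H460 it had 115, 93 and 87.1 CPM in CCS1477 libraries, against 119, 130.1 and 130.4 CPM in DMSO libraries, a log2 change of -0.444 ± 0.097 (SE, limma adjusted p = 0.00493) with no overlap. In H2023 it had 47.4, 39.5 and 34.7 CPM against 21.9, 35.5 and 36.6 CPM, a log2 change of 0.343 ± 0.176 (SE, limma adjusted p = 0.116) with overlapping libraries. In ABC-1 the change was 0.034 ± 0.052 (SE, limma adjusted p = 0.576), with an interval of -0.080 to 0.149. Of the reads that can be matched to SLC2A1, 58.2 to 62.9% stood on a single transcript row, ENST00000630287, and not on the gene row. That row had 66.4, 74.8 and 71.7 CPM in CCS1477 libraries of H2023, against 48.1, 49.4 and 53.4 CPM in DMSO libraries. With transcript rows added, the change in H2023 was 0.398 (limma adjusted p = 9.67e-05), that in H460 -0.411 (limma adjusted p = 6.12e-05) and that in ABC-1 -0.018 (limma adjusted p = 0.703). The gene row alone was below the threshold in H2023 with all 6 libraries and at 0.472 (limma adjusted p = 0.0484) without DMSO replicate 3.

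Hexokinases changed by line. HK2 (chr2:74833981-74893359, plus strand) had 56.8, 55.9 and 55.5 CPM in CCS1477 libraries of H460, against 72.7, 77.3 and 71.8 CPM in DMSO libraries, a log2 change of -0.470 ± 0.045 (SE, limma adjusted p = 6.68e-05). In ABC-1, HK2 had 11.8, 14.4 and 12.4 CPM against 8.28, 10.2 and 9.6 CPM, a log2 change of 0.394 ± 0.114 (SE, limma adjusted p = 0.0102). The groups did not overlap in these 2 lines, which moved in opposite directions. In H2023 the change was 0.180 ± 0.149, at 3.7 to 5.41 CPM, and did not pass. HK1, the constitutive hexokinase, averaged 195 ± 8.92 CPM in CCS1477 libraries and 145 ± 0.757 CPM in DMSO libraries of H460 and rose by 0.347 on the log2 scale (limma adjusted p = 0.000229). In H2023 HK1 averaged 280.2 ± 3.37 CPM in CCS1477 libraries and 318 ± 4.04 CPM in DMSO libraries, a log2 change of -0.234 ± 0.031 (SE, limma adjusted p = 6.54e-05), and in ABC-1 its change was 0.061 ± 0.040.

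GPI (chr19:34359480-34402413, plus strand), the isomerase after hexokinase, fell on its gene row in all lines. It had 364, 351 and 322 CPM in CCS1477 libraries of H460, against 449.9, 448 and 465 CPM in DMSO libraries, a log2 change of -0.469 ± 0.049 (SE, limma adjusted p = 0.00011). The changes were -0.415 ± 0.033 in H2023 and -0.192 ± 0.045 in ABC-1 (limma adjusted p = 1.36e-06 and 0.0028). Part of GPI also stood on transcript rows, 41.1% of its reads in CCS1477 libraries and 35.2% in DMSO libraries of H460, 39.8% and 34.2% in H2023. With these rows added the changes were -0.074 in ABC-1, -0.287 in H2023 and -0.332 in H460, and the ABC-1 change no longer passed (limma adjusted p = 0.11).

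Of the 3 phosphofructokinase genes, which commit glucose to glycolysis, PFKL fell and PFKM rose in ABC-1. PFKL (chr21:44300051-44327376, plus strand) had 100.496, 103 and 97.8 CPM in CCS1477 libraries of ABC-1, against 141, 142 and 134 CPM in DMSO libraries, a log2 change of -0.527 ± 0.042 (SE, limma adjusted p = 6.91e-07). PFKM, the muscle type, had 71.2, 62.6 and 69 CPM in CCS1477 libraries of ABC-1 against 46.2, 47.5 and 40.3 CPM in DMSO libraries, a log2 change of 0.538 ± 0.076 (SE, limma adjusted p = 8.01e-05). PFKP (chr10:3066333-3137712, plus strand) had 3.83, 2.19 and 2.63 CPM in CCS1477 libraries of ABC-1 against 1.02, 0.511 and 0.69 CPM in DMSO libraries. A single DMSO library reached 1 CPM, so PFKP passed the filter there through the CCS1477 group, where it was high, and its values in ABC-1 are a description. None of the 3 overlapped between groups. Per length, PFKP remained the least abundant of them in CCS1477 libraries of ABC-1, at a mean of 1.7 TPM beside 26.4 TPM for PFKM and 32.2 TPM for PFKL. In H2023, where PFKP led in DMSO libraries at 118.9 ± 7.69 TPM, it had 191, 197 and 192 CPM in CCS1477 libraries against 234, 244 and 241 CPM in DMSO libraries, a log2 change of -0.359 ± 0.035 (SE, limma adjusted p = 7.47e-06). In H460 PFKP did not pass, at -0.051 ± 0.044. PFKL did not pass in H2023, at 0.092 ± 0.058, or in H460, at 0.156 ± 0.081, though without CCS1477 replicate 3 it was at 0.228 there (limma adjusted p = 0.0358). PFKM passed in H460 at -0.140 ± 0.042 (limma adjusted p = 0.0211) with overlapping libraries. That call was lost without CCS1477 replicate 2 or 3 or DMSO replicate 1 or 3, at -0.112 to -0.139, and with transcript rows added (limma adjusted p = 0.053). PFKM did not pass in H2023 on its gene row, at -0.0084 ± 0.052, and with transcript rows added it was 0.141 (limma adjusted p = 0.0142). SENP1 overlaps PFKM on the opposite strand and held up to 1187 reads in a library.

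Of the bifunctional PFKFB enzymes, which set the level of a fructose bisphosphate that activates phosphofructokinase, PFKFB3 fell most in H2023. PFKFB3 (chr10:6144934-6254644, plus strand), the most kinase-active form, had 107, 101 and 99 CPM in CCS1477 libraries of H2023, against 135, 131 and 135 CPM in DMSO libraries, a log2 change of -0.445 ± 0.038 (SE, limma adjusted p = 2.63e-06). Its calls in the other lines were weak. PFKFB3 changed by -0.183 ± 0.060 (SE, limma adjusted p = 0.0301) in H460, where the call was lost without CCS1477 replicate 2 or 3 or DMSO replicate 2 or 3 (-0.142 to -0.183). In ABC-1 it changed by -0.141 ± 0.055 (SE, limma adjusted p = 0.0407), and the call was lost without any one library other than CCS1477 replicate 3 (-0.123 to -0.149). PFKFB2, the heart-type form, averaged 47.1 ± 0.267 CPM in CCS1477 libraries and 33.2 ± 0.792 CPM in DMSO libraries of ABC-1, a log2 change of 0.445 ± 0.049 (SE, limma adjusted p = 9.83e-06). In H2023 PFKFB2 averaged 27 ± 2.25 CPM in CCS1477 libraries and 32 ± 2.51 CPM in DMSO libraries, a change of -0.298 ± 0.078 (SE, limma adjusted p = 0.00654). PFKFB2 in H460 changed by 0.239 ± 0.077 (SE, limma adjusted p = 0.0288) and PFKFB4 there by -0.333 ± 0.112 (SE, limma adjusted p = 0.0337). Without CCS1477 replicate 2 or 3 or DMSO replicate 1 or 3 the PFKFB2 call was lost (0.186 to 0.255), and without any library but DMSO replicate 3 that of PFKFB4 was (-0.363 to -0.275). PFKFB4 passed in no other line. YOD1 overlaps PFKFB2 on the opposite strand and held up to 2230 reads in a library, and strand use in counting is not given.

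Below phosphofructokinase, the minor isozymes ALDOC and ENO2 rose in every line. The major isozyme ALDOA rose too, while ENO1 fell in H2023 and ABC-1. ALDOC (chr17:28573115-28577264, minus strand), the brain-type aldolase, had 8.41, 8.35 and 8.02 CPM in CCS1477 libraries of ABC-1, against 1.15, 1.41 and 0.898 CPM in DMSO libraries, a log2 change of 2.559 ± 0.176 (SE, limma adjusted p = 2.07e-07). In H2023 ALDOC had 5.41, 8.11 and 5.64 CPM against 2.24, 2.14 and 1.88 CPM in DMSO libraries, a change of 1.437 ± 0.178 (SE, limma adjusted p = 4.22e-05). In H460 ALDOC had 31.6, 27.4 and 28.2 CPM against 15.3, 14.4 and 14.7 CPM in DMSO libraries, a change of 0.893 ± 0.069 (SE, limma adjusted p = 2.33e-05). The groups were fully separate in each line, and the lines with the lower untreated level had the larger change. The DMSO libraries enter both the level and the change, so this order is a description. ADM ran the other way, with the larger change in the lines with the higher untreated level.

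ENO2 (chr12:6913745-6923698, plus strand), the neuronal enolase, showed the same separation. In H460 it had 26.6, 24.4 and 23.6 CPM in CCS1477 libraries, against 6.64, 7.3 and 8.21 CPM in DMSO libraries, a log2 change of 1.665 ± 0.094 (SE, limma adjusted p = 4.8e-06). In H2023 ENO2 had 44.6, 49.9 and 48.3 CPM against 27.9, 28.3 and 28.8 CPM in DMSO libraries, a change of 0.691 ± 0.058 (SE, limma adjusted p = 2.18e-06). In ABC-1 ENO2 had 16.5, 13.6 and 15.5 CPM against 2.23, 3.26 and 3.31 CPM in DMSO libraries, a change of 2.237 ± 0.161 (SE, limma adjusted p = 3.04e-07). It overlaps LRRC23 on the same strand, which held at most 86 reads in a library. ENO1, the abundant enolase, went the other way, with -0.281 ± 0.039 (SE, limma adjusted p = 9.3e-05) in H2023 and -0.235 ± 0.043 (SE, limma adjusted p = 0.00059) in ABC-1. In H460 ENO1 was at -0.127 ± 0.052 (SE, limma adjusted p = 0.0695), and at -0.155 (limma adjusted p = 0.0094) without CCS1477 replicate 1. Per length, ENO2 averaged 10.2 TPM in CCS1477 libraries of ABC-1, beside 487 TPM for ENO1 in the same libraries.

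ALDOA (chr16:30064164-30070457, plus strand), the main aldolase, had 1401, 1403 and 1420.3 CPM in CCS1477 libraries of ABC-1, against 828, 828 and 806 CPM in DMSO libraries, a log2 change of 0.720 ± 0.035 (SE, limma adjusted p = 1.17e-08). ALDOA changed by 0.404 ± 0.059 (SE, limma adjusted p = 0.0006) in H460 and by 0.292 ± 0.037 (SE, limma adjusted p = 5.33e-05) in H2023. Reads of its transcript rows moved against the gene row in H460: ENST00000566130 had 52.1, 101 and 44.4 CPM in CCS1477 libraries, against 190.5, 172 and 163 CPM in DMSO libraries. With transcript rows added, ALDOA in H460 rose by 0.226 (limma adjusted p = 0.00535). A readthrough gene on the same strand overlaps ALDOA and held up to 4953 reads in a library, and how reads were divided between them is not given. TPI1, triose phosphate isomerase, rose by 0.485 ± 0.038 in ABC-1, 0.192 ± 0.036 in H2023 and 0.192 ± 0.043 in H460, and PKM by 0.334 ± 0.042, 0.242 ± 0.034 and 0.413 ± 0.060 in the same lines. PKM1 and PKM2, the splice forms of PKM, were not told apart on the gene row.

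GAPDH (chr12:6533927-6538374, plus strand), often used as a reference gene, was not stable in ABC-1. It had 4007, 3951 and 4073 CPM in CCS1477 libraries of ABC-1, against 2106, 2075 and 1984 CPM in DMSO libraries, a log2 change of 0.905 ± 0.043 (SE, limma adjusted p = 9.23e-09). In H460 GAPDH changed by 0.055 ± 0.066 (SE, limma adjusted p = 0.507) and in H2023 by 0.095 ± 0.040 (SE, limma adjusted p = 0.0584), with intervals of -0.098 to 0.207 and 0.0074 to 0.183. Without CCS1477 replicate 1, GAPDH in H2023 was at 0.117 (limma adjusted p = 0.0152), and it passed under 7 other settings as well. PGK1, the first ATP-making kinase, changed by -0.151 ± 0.034 (SE, limma adjusted p = 0.0028) in H2023 and by 0.174 ± 0.047 (SE, limma adjusted p = 0.00664) in ABC-1. In H460 PGK1 was at -0.104 ± 0.050, and at -0.130 (limma adjusted p = 0.0334) without CCS1477 replicate 1. ATP7A overlaps PGK1 on the same strand and held up to 1285 reads in a library. PGAM1 fell by a like amount in each line, at -0.174 ± 0.040, -0.159 ± 0.032 and -0.167 ± 0.038. Pseudogene rows of GAPDH, PGAM1, TPI1, LDHA and ENO1 held at most 0.548% of the reads of their parent gene.

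The glycolytic genes together took a larger share of the library in 2 lines. Their gene rows held 1.18 to 1.21% of reads in CCS1477 libraries of ABC-1, against 0.825 to 0.867% in DMSO libraries. In H460 the share was 1.96 to 2.13% in CCS1477 libraries, highest in replicate 1, against 1.81 to 1.87% in DMSO libraries. In H2023 it was 1.74 to 1.78% in CCS1477 libraries and 1.74 to 1.77% in DMSO libraries, which overlapped. A few abundant genes carry this share: in ABC-1, GAPDH alone held 4007, 3951 and 4073 CPM in CCS1477 libraries and 2106, 2075 and 1984 CPM in DMSO libraries. The hypoxia genes together held 0.0857 to 0.0867% of reads in CCS1477 libraries of H460, against 0.0739 to 0.0815% in DMSO libraries. In H2023 their share was 0.118 to 0.123% in CCS1477 libraries and 0.148 to 0.152% in DMSO libraries, and in ABC-1 it was 0.12 to 0.122% and 0.124 to 0.126%. The share was thus lower with CCS1477 in H2023 and ABC-1, where the median change of the hypoxia genes was above 0. HIF1A and EPAS1 held the most reads of them there. In H2023 both were lower with CCS1477, at means of 340 against 551 CPM and 279 against 435 CPM. In ABC-1 EPAS1 averaged 395 against 618 CPM, while HIF1A averaged 304 against 279 CPM and did not pass the test.

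The lactate-forming subunit LDHA and the exporter SLC16A3 fell in all 3 lines, while LDHB and SLC16A1 differed by line. LDHA (chr11:18394388-18408425, plus strand), the subunit favouring lactate, had 925, 933 and 981 CPM in CCS1477 libraries of H2023, against 1232, 1193 and 1221 CPM in DMSO libraries, a log2 change of -0.413 ± 0.036 (SE, limma adjusted p = 2.63e-06). LDHA changed by -0.255 ± 0.043 (SE, limma adjusted p = 0.00138) in H460 and by -0.412 ± 0.038 (SE, limma adjusted p = 2.26e-06) in ABC-1. LDHB changed by -0.344 ± 0.035 (SE, limma adjusted p = 9.69e-06) in H2023 and -0.247 ± 0.035 (SE, limma adjusted p = 8.12e-05) in ABC-1, and was at -0.00027 ± 0.054 in H460, with an interval of -0.124 to 0.123.

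SLC16A3 (chr17:82228397-82261129, plus strand) had 154, 129.8 and 123 CPM in CCS1477 libraries of H460, against 201, 207 and 201 CPM in DMSO libraries, a log2 change of -0.662 ± 0.076 (SE, limma adjusted p = 0.000174). In H2023 SLC16A3 had 89.6, 99.996 and 98.9 CPM against 124, 131 and 132 CPM in DMSO libraries, a change of -0.475 ± 0.052 (SE, limma adjusted p = 1.75e-05). In ABC-1 SLC16A3 had 14, 12.7 and 13 CPM against 18, 17.1 and 18.4 CPM in DMSO libraries, a change of -0.482 ± 0.078 (SE, limma adjusted p = 0.000217). Every CCS1477 library of SLC16A3 lay below every DMSO library of its line. CSNK1D overlaps SLC16A3 on the opposite strand and held up to 2255 reads in a library, and strand use in counting is not given. SLC16A1 (chr1:112911847-112957013, minus strand), a carrier of lactate and pyruvate in both directions, rose in H460 and H2023 and fell in ABC-1. It averaged 164 ± 1.49 CPM in CCS1477 libraries and 138 ± 1.83 CPM in DMSO libraries of H460, a change of 0.176 ± 0.035 (SE, limma adjusted p = 0.00298), and changed by 0.305 ± 0.037 (SE, limma adjusted p = 3.37e-05) in H2023. In ABC-1 SLC16A1 had 130.2, 134 and 126 CPM in CCS1477 libraries against 162, 169 and 167 CPM in DMSO libraries, a change of -0.413 ± 0.039 (SE, limma adjusted p = 2.98e-06).

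PDK1 (chr2:172555373-172608669, plus strand), the hypoxia-inducible kinase of pyruvate dehydrogenase, was among the most strongly lowered members in H460, beside SLC2A3. It had 29.2, 28.9 and 30.5 CPM in CCS1477 libraries, against 48, 50.6 and 49.6 CPM in DMSO libraries, a log2 change of -0.812 ± 0.049 (SE, limma adjusted p = 7.06e-06). In H2023 PDK1 was scarce, with 4.62, 3.93 and 4.73 CPM in CCS1477 libraries against 3.42, 2.63 and 2.47 CPM in DMSO libraries, and rose by 0.558 ± 0.164 (SE, limma adjusted p = 0.0126). In ABC-1 PDK1 libraries overlapped and the change was 0.023 ± 0.094. PDK3 rose in each line, by 0.774 ± 0.074 in ABC-1, 0.241 ± 0.052 in H2023 and 0.339 ± 0.063 in H460, and averaged 36 ± 1.26 CPM in CCS1477 libraries and 20.1 ± 1.87 CPM in DMSO libraries of ABC-1. The 2 kinases thus moved against each other in H460 and together in H2023.

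**Figure D3:**
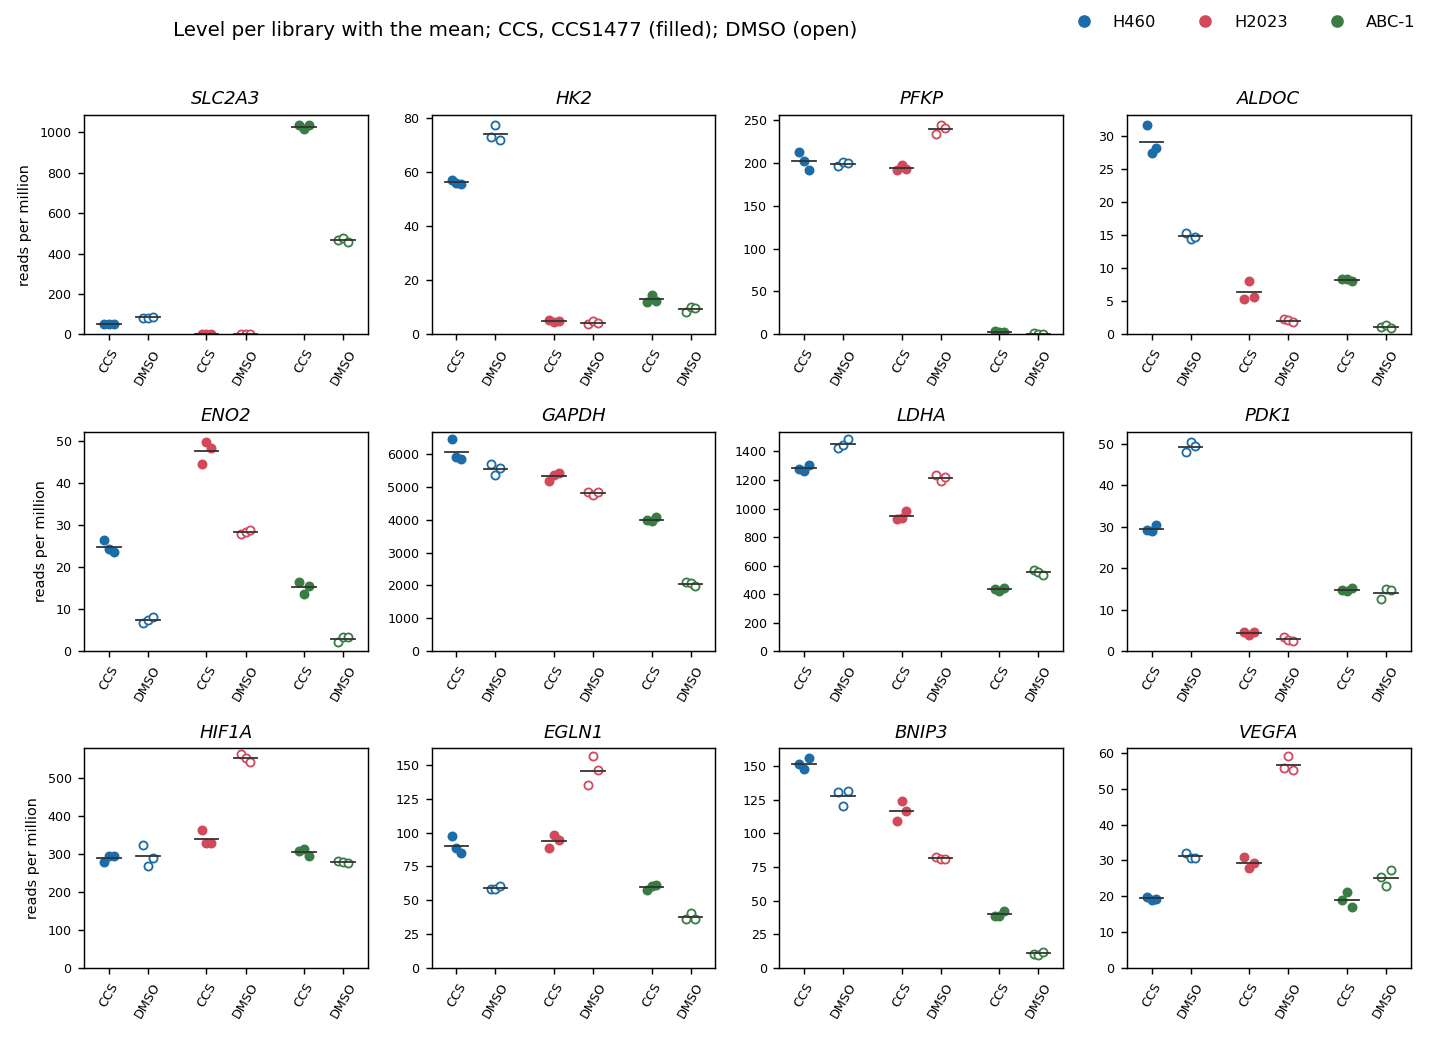
CPM in every library for 12 genes, CCS1477 (filled) left of DMSO (open) within each line, with the mean of 3 libraries as a bar; each vertical axis starts at 0. SLC2A3, HK2, PDK1 and EGLN1 move in opposite directions between lines, while ALDOC, ENO2 and BNIP3 rise and LDHA and VEGFA fall in each.

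HIF1A (chr14:61695513-61748259, plus strand) changed in 1 of the lines. It had 364, 329 and 327 CPM in CCS1477 libraries of H2023, against 562, 552 and 541 CPM in DMSO libraries, a log2 change of -0.751 ± 0.042 (SE, limma adjusted p = 9.65e-08). In H460 HIF1A had 278, 293 and 293 CPM against 323, 268 and 289 CPM in DMSO libraries, a change of -0.096 ± 0.065 (SE, limma adjusted p = 0.24) with overlapping libraries. In ABC-1 it had 307, 311 and 293 CPM against 281, 279 and 277 CPM in DMSO libraries, a change of 0.062 ± 0.035 (SE, limma adjusted p = 0.137). H2023 was also the line with the highest untreated HIF1A level, and with CCS1477 it came near the level of the other lines. This is a description, since the DMSO libraries enter both the level and the change. Scaled by library totals, HIF1A in ABC-1 was at 0.122 (limma adjusted p = 0.00343).

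EPAS1 (chr2:46293667-46386703, plus strand), which encodes HIF-2 alpha, fell in every line. In H460 it had 91.8, 90.3 and 82.9 CPM in CCS1477 libraries, against 98.3, 99.3 and 100.025 CPM in DMSO libraries, a log2 change of -0.242 ± 0.046 (SE, limma adjusted p = 0.00259). In H2023 EPAS1 had 285, 279 and 271 CPM against 424, 449 and 433 CPM in DMSO libraries, a change of -0.696 ± 0.037 (SE, limma adjusted p = 7.03e-08). In ABC-1 EPAS1 had 387, 405 and 392 CPM against 633, 613 and 607 CPM in DMSO libraries, a change of -0.706 ± 0.033 (SE, limma adjusted p = 8.84e-09). No EPAS1 library of a CCS1477 group reached its DMSO group.

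EGLN1 (chr1:231363751-231425044, minus strand), the main oxygen sensor of the pathway, ran in opposite directions. In H460 it had 97.2, 88.6 and 84.5 CPM in CCS1477 libraries, against 58.3, 58.6 and 60.5 CPM in DMSO libraries, a log2 change of 0.532 ± 0.055 (SE, limma adjusted p = 0.000104). In H2023 EGLN1 had 88.9, 98.3 and 94.5 CPM against 135, 156 and 146 CPM in DMSO libraries, a change of -0.683 ± 0.061 (SE, limma adjusted p = 3.33e-06). In ABC-1 EGLN1 had 57.4, 60.6 and 61.5 CPM against 36.4, 40.2 and 36 CPM in DMSO libraries, a change of 0.610 ± 0.061 (SE, limma adjusted p = 4.73e-06). The groups were separate in each line, and H2023, where EGLN1 fell, had the highest untreated level, which shares its DMSO libraries with the change. Transcript rows held 9.43% of EGLN1 reads in CCS1477 libraries and 23.5% in DMSO libraries of H460, and with them the H460 change was 0.290 (limma adjusted p = 0.000189). EGLN3, a hydroxylase that is itself induced in hypoxia, had weak calls, -0.205 ± 0.068 (SE, limma adjusted p = 0.0323) in H460 and 0.288 ± 0.097 (SE, limma adjusted p = 0.0239) in H2023. Without any one library but CCS1477 replicate 1 the H460 call was lost (-0.150 to -0.220), and that in H2023 without CCS1477 replicate 1 or 2 or DMSO replicate 2 or 3 (0.231 to 0.285). In ABC-1 EGLN3 was at 0.274 ± 0.139 and passed without DMSO replicate 2, at 0.393 (limma adjusted p = 0.0318). SPTSSA overlaps EGLN3 on the same strand and held up to 2917 reads in a library, where EGLN3 held at most 668. How reads were divided between them is not given.

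**Figure D4:**
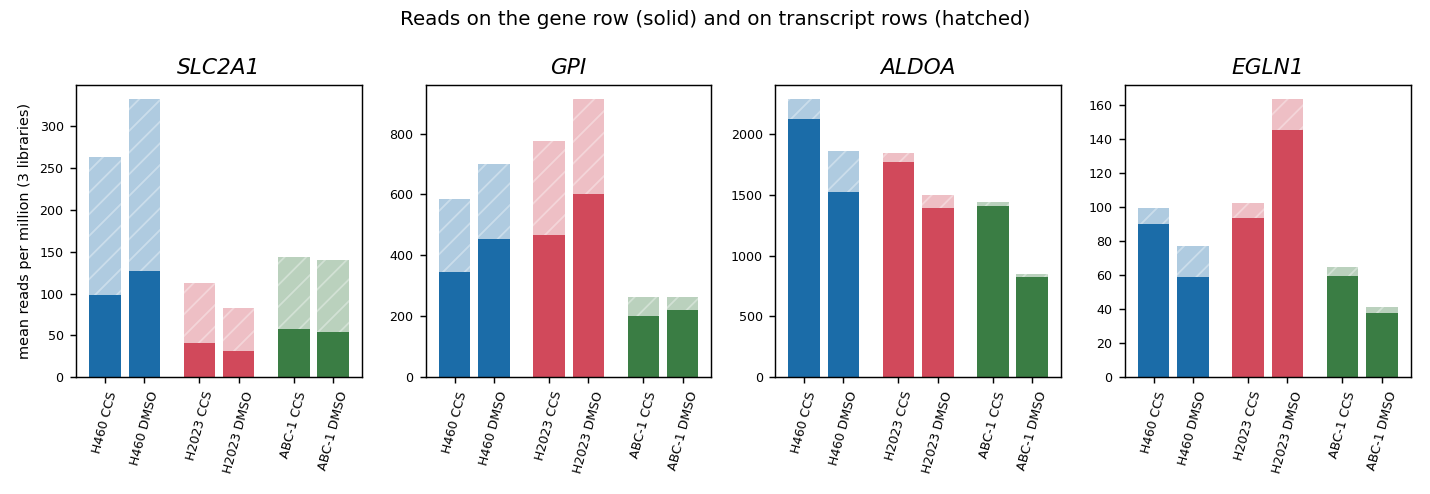
Mean CPM of 3 libraries on the gene row (solid) and on matched transcript rows (hatched) for SLC2A1, GPI, ALDOA and EGLN1, CCS1477 (CCS) left of DMSO within each line. Transcript rows hold most SLC2A1 reads, and in H460 they are a smaller part of ALDOA and EGLN1 with CCS1477 than with DMSO.

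Known HIF targets moved in both directions, with VEGFA on the low side. VEGFA (chr6:43770184-43786487, plus strand), the angiogenic growth factor, fell on its gene row in every line. In H460 it had 19.8, 19 and 19.4 CPM in CCS1477 libraries, against 32, 30.7 and 30.6 CPM in DMSO libraries, a log2 change of -0.749 ± 0.051 (SE, limma adjusted p = 1.27e-05). In H2023 VEGFA had 30.9, 27.8 and 29.2 CPM against 55.7, 59.2 and 55.4 CPM in DMSO libraries, a change of -1.001 ± 0.057 (SE, limma adjusted p = 1.14e-07). In ABC-1 VEGFA had 18.9, 21.2 and 17.1 CPM against 25.5, 22.8 and 27.4 CPM in DMSO libraries, a change of -0.460 ± 0.088 (SE, limma adjusted p = 0.000729), where the groups were separate but close. Part of VEGFA stood on transcript rows, 26.0% of its reads in CCS1477 libraries and 20.2% in DMSO libraries of H460. In the same order they held 26.1 and 24.6% in H2023 and 33.6 and 35.8% in ABC-1. The VEGFA changes with these rows added are not given here.

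The mitophagy receptors rose, each with its own line order. BNIP3 (chr10:131966455-131982013, minus strand) had 38.5, 38.3 and 42.3 CPM in CCS1477 libraries of ABC-1, against 10.1, 9.84 and 12.2 CPM in DMSO libraries, a log2 change of 1.814 ± 0.087 (SE, limma adjusted p = 1.03e-08). In H2023 BNIP3 had 109, 124 and 117 CPM against 82.8, 81 and 81.1 CPM in DMSO libraries, a change of 0.461 ± 0.050 (SE, limma adjusted p = 1.41e-05), and in H460 the change was 0.176 ± 0.047 (SE, limma adjusted p = 0.0127). Without DMSO replicate 2 the H460 value was 0.138 (limma adjusted p = 0.0518). BNIP3L had 34.8, 34.7 and 38.2 CPM in CCS1477 libraries of H460, against 18, 16.8 and 15.9 CPM in DMSO libraries, a change of 1.009 ± 0.068 (SE, limma adjusted p = 1.22e-05). In H2023 BNIP3L had 57.2, 56.8 and 53.8 CPM against 24.7, 24.8 and 25.9 CPM in DMSO libraries, a change of 1.092 ± 0.051 (SE, limma adjusted p = 3.02e-08), and in ABC-1 it changed by 0.587 ± 0.042 (SE, limma adjusted p = 3.19e-07). BNIP3 thus changed most in ABC-1 and BNIP3L least there, and each changed least in a line where its untreated level was highest. Level and change share the DMSO libraries here too.

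The prolyl hydroxylases of collagen, P4HA1 and P4HA2, and the histone demethylase KDM3A rose by line-dependent amounts. P4HA2 had 23.9, 23.7 and 23.1 CPM in CCS1477 libraries of H460, against 12.7, 13.4 and 12.6 CPM in DMSO libraries, a log2 change of 0.788 ± 0.059 (SE, limma adjusted p = 1.99e-05), and rose by 0.219 ± 0.054 in H2023 and 0.247 ± 0.067 in ABC-1. P4HA1 had 95.2, 98.6 and 103 CPM in CCS1477 libraries of H2023, against 63.5, 68.9 and 67.2 CPM in DMSO libraries, a change of 0.517 ± 0.050 (SE, limma adjusted p = 5.95e-06). In ABC-1 P4HA1 changed by 0.764 ± 0.047 (SE, limma adjusted p = 7.68e-08), and in H460 it was at 0.109 ± 0.044 (SE, limma adjusted p = 0.0666), or 0.125 (limma adjusted p = 0.0391) without CCS1477 replicate 1. KDM3A had 30.7, 32.2 and 32.5 CPM in CCS1477 libraries of H460, against 20.1, 16.6 and 20 CPM in DMSO libraries, a change of 0.679 ± 0.081 (SE, limma adjusted p = 0.000219), and rose by 0.509 ± 0.049 in H2023. In ABC-1 the KDM3A change was 0.128 ± 0.046 (SE, limma adjusted p = 0.0289), and the call was lost without CCS1477 replicate 1 or 2 or DMSO replicate 1 or 3 (0.116 to 0.132).

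ADM, the vasodilator peptide adrenomedullin, averaged 53 ± 1.13 CPM in CCS1477 libraries and 27 ± 1.27 CPM in DMSO libraries of ABC-1, a log2 change of 0.906 ± 0.056 (SE, limma adjusted p = 8.19e-08). It rose by 0.484 ± 0.070 in H2023 and 0.381 ± 0.102 in H460. NDRG1, a stress-responsive gene of differentiation, had 67.7, 59 and 59 CPM in CCS1477 libraries of H2023, against 37.1, 34.8 and 34.5 CPM in DMSO libraries, a change of 0.744 ± 0.060 (SE, limma adjusted p = 1.7e-06). In ABC-1 NDRG1 had 34.7, 33.8 and 37.2 CPM against 44.7, 48.9 and 47.6 CPM in DMSO libraries, a change of -0.476 ± 0.062 (SE, limma adjusted p = 3.83e-05). NDRG1 was at 0.303 ± 0.140 (SE, limma adjusted p = 0.0988) in H460, and at 0.435 (limma adjusted p = 0.0241) without CCS1477 replicate 2. ANKRD37 had 1.49, 1.3 and 1.63 CPM in CCS1477 libraries of ABC-1 against 0.446, 0.319 and 0.414 CPM in DMSO libraries, with no overlap. It passed the filter of 1 CPM in 3 libraries there through the CCS1477 group alone, so these values are a description and no test of it is given. CA9 stayed between 0.497 and 0.864 CPM in CCS1477 libraries of H460 and between 0.488 and 0.778 CPM in DMSO libraries, and at or below 0.602 CPM in all H2023 libraries. In bulk RNA, fewer cells of a kind and less RNA per cell cannot be told apart.

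Whether the lines differed in their change was tested directly, in 1 fit over the 18 libraries, and each difference is the change of the line named first minus that of the line named after it. Of 39 members, 29 differed between H460 and ABC-1, 10 higher and 19 lower in H460, where 46.5% of 13551 genes did (24.5% higher, 22.0% lower). Between H2023 and ABC-1, 27 differed, 6 higher and 21 lower in H2023, against 41.0% of all genes (19.5% higher, 21.6% lower). Between H460 and H2023, 18 differed, 10 higher and 8 lower in H460, against 27.3% (16.6% higher, 10.8% lower). SLC2A3 in H2023, and ANKRD37 in H460 and H2023, were too scarce for a test of their own. Leaving out each gene that lacked a test in either line, 10 of 38 were higher and 18 lower in H460 against ABC-1, 6 of 37 higher and 19 lower in H2023 against ABC-1, and 10 of 37 higher and 8 lower in H460 against H2023. The glycolytic genes tended to the low side in both comparisons with ABC-1: 13 of 26 were lower and 5 higher in H460, and 14 lower (13 without SLC2A3) and 3 higher in H2023, with median differences of -0.28 and -0.26 against 0.0091 and -0.018 over all genes. The 2 comparisons share the ABC-1 libraries. Their counts of lower genes, all members and glycolytic, still include PFKP, which passed the filter in ABC-1 through the CCS1477 group.

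Single differences were larger than any median. GAPDH differed by -0.851 ± 0.066 and -0.810 ± 0.066 in H460 and H2023 against ABC-1. BNIP3 differed by -1.638 ± 0.093 and -1.353 ± 0.093. SLC16A1 lay on the other side, higher by 0.589 ± 0.047 and 0.718 ± 0.047, as did PFKL at 0.683 ± 0.096 and 0.619 ± 0.096. NDRG1 was 0.779 ± 0.150 and 1.221 ± 0.150, and KDM3A 0.551 ± 0.084 and 0.381 ± 0.084. All of these passed the threshold.

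H2023 differed from both other lines in EGLN1 and HIF1A. EGLN1 differed by 1.215 ± 0.093 between H460 and H2023 and by -1.293 ± 0.093 between H2023 and ABC-1 (limma adjusted p = 4.2e-08 and 5.32e-09), while H460 and ABC-1 differed by -0.078 ± 0.093, with an interval of -0.275 to 0.119. These EGLN1 differences were measured on the gene row alone. Transcript rows held 23.5% of EGLN1 reads in DMSO libraries and 9.43% in CCS1477 libraries of H460, against 8.58 and 7.93% in ABC-1. With these rows added the H460 change was smaller, as given above, and the difference between lines was not tested. HIF1A differed by 0.655 ± 0.074 between H460 and H2023 and by -0.814 ± 0.074 between H2023 and ABC-1. Between H460 and ABC-1, HIF1A was at -0.158 ± 0.074 (limma adjusted p = 0.0922), and without H460 DMSO replicate 2 it was at -0.218 (limma adjusted p = 0.0151). ENO2 differed in every pair of lines, by 0.974 ± 0.173 between H460 and H2023, -1.546 ± 0.173 between H2023 and ABC-1 and -0.571 ± 0.173 between H460 and ABC-1 (limma adjusted p = 0.0116 for the smallest). PDK1 also differed in every pair, at -1.370 ± 0.147 between H460 and H2023, -0.835 ± 0.147 between H460 and ABC-1 and 0.535 ± 0.147 between H2023 and ABC-1 (limma adjusted p = 0.0072 for the smallest). EPAS1 fell less in H460, by 0.454 ± 0.053 against H2023 and 0.464 ± 0.053 against ABC-1, and H2023 and ABC-1 differed by 0.010 ± 0.053, with an interval of -0.102 to 0.122.

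Among HIF regulators outside the 40 genes, 6 of 14 tested rose and 1 fell in H460, 7 of 14 rose and 2 fell in H2023, and 5 of 13 rose and 5 fell in ABC-1. That is 50, 64.3 and 76.9% of them past the test in H460, H2023 and ABC-1, against 56.1, 60.6 and 66.1% of all genes. HIF1AN, the asparaginyl hydroxylase that blocks the contact of HIF-alpha with p300 and CBP, rose in each line, by 0.560 ± 0.037 in ABC-1, 0.367 ± 0.035 in H2023 and 0.348 ± 0.044 in H460. The chaperone HSP90AA1 rose by 0.517 ± 0.061 in H460 and 0.520 ± 0.042 in H2023. EGLN2, a further HIF prolyl hydroxylase, fell by -0.563 ± 0.045 in H2023 and -0.644 ± 0.040 in ABC-1. CITED2, which competes with HIF-alpha for p300 and CBP, averaged 212 ± 4.92 CPM in CCS1477 libraries and 119 ± 2.87 CPM in DMSO libraries of ABC-1, a change of 0.770 ± 0.037 (limma adjusted p = 1.1e-08). ARNT, the shared beta subunit, rose by 0.281 ± 0.052 in H460 and 0.332 ± 0.054 in ABC-1.

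Other hypoxia-inducible genes split as well, with 9 of 29 higher and 13 lower in H460, 9 of 29 higher and 11 lower in H2023, and 10 of 23 higher and 7 lower in ABC-1. The shares past the test were 75.9, 69.0 and 73.9%, against the same 56.1, 60.6 and 66.1% of all genes. CA12, a relative of CA9, averaged 245 ± 7.48 CPM in CCS1477 libraries and 528 ± 8.52 CPM in DMSO libraries of H2023, a change of -1.162 ± 0.035, and changed by -1.173 ± 0.043 in H460. DDIT4, an inhibitor of mTORC1 signalling, averaged 13.2 ± 1.14 CPM in CCS1477 libraries and 46.6 ± 1.17 CPM in DMSO libraries of ABC-1, a change of -1.859 ± 0.074, and changed by -1.596 ± 0.085 in H2023. STC2, a secreted glycoprotein, fell in H460 (-0.790 ± 0.070) and ABC-1 (-1.398 ± 0.076). The histone demethylase KDM4B rose in H460 (0.628 ± 0.056) and H2023 (0.790 ± 0.081), as its relative KDM3A did.

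Genes of pyruvate entry into mitochondria rose in 6 of 16, 6 of 16 and 7 of 13 tested and fell in 5, 5 and 3 in H460, H2023 and ABC-1. Their shares past the test, 68.8, 68.8 and 76.9%, were read beside 56.1, 60.6 and 66.1% of all genes and lay not far above them. MPC1, a subunit of the mitochondrial pyruvate carrier, averaged 27.1 ± 1.39 CPM in CCS1477 libraries and 13.4 ± 0.833 CPM in DMSO libraries of H460, a change of 0.931 ± 0.072, and rose by 1.279 ± 0.082 in H2023. In ABC-1 its partner MPC2 rose by 0.491 ± 0.046, the pyruvate dehydrogenase phosphatase PDP1 by 1.078 ± 0.048 and PDHB, a subunit of the enzyme, by 0.604 ± 0.064. DLAT, its acetyltransferase subunit, fell in H460 (-0.456 ± 0.051) and H2023 (-0.492 ± 0.043), and PDK4 fell in H2023 (-1.413 ± 0.069).

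Of other genes of sugar entry and glycolysis, 8 of 15 rose and 3 fell in H460, 7 of 16 rose and 2 fell in H2023, and 5 of 12 rose and 4 fell in ABC-1. Past the test were 73.3, 56.2 and 75% of them, against 56.1, 60.6 and 66.1% of all genes. GPD2, the mitochondrial glycerol phosphate dehydrogenase, fell in all 3 lines, with -1.271 ± 0.040 in ABC-1, -0.427 ± 0.039 in H2023 and -0.533 ± 0.036 in H460. TXNIP, an arrestin-fold gene that lowers glucose uptake, averaged 39.5 ± 1.15 CPM in CCS1477 libraries and 19.6 ± 0.381 CPM in DMSO libraries of H460, a change of 0.934 ± 0.050 (limma adjusted p = 3.65e-06). HKDC1, a hexokinase relative, fell in H2023 (-0.891 ± 0.049), and BPGM, a bisphosphoglycerate mutase, fell in ABC-1 (-1.579 ± 0.054). SLC2A12, a minor glucose carrier, rose in ABC-1 (1.298 ± 0.144). In H2023 it averaged 1.83 ± 0.473 CPM in CCS1477 libraries and 0.234 ± 0.0223 CPM in DMSO libraries, where it passed the filter through the CCS1477 group alone and is given as a description. In the counts of these 4 lists, SLC2A10 in H460, ARNT2, RORA and SLC2A12 in H2023, and LOXL2 and MLXIPL in ABC-1 stand as higher after passing the filter through the CCS1477 group.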

How the data were processed

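The authors deposited log2 values, 1 table per line, on GRCh38 per the submitters' processing notes. Per the labels, Sepasol RNA went into MGI directional libraries; for the aligner, the counter, strand use and RNA selection the answer is: not given in the sources used here. The values themselves are log2 of whole reads times 1 scaling factor per library, plus 4, so a row without reads stands at 2. Undoing this gave whole reads within 0.1 for 100% of values of up to 1000 reads.

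CPM counts reads over all rows; TPM uses exon lengths of GENCODE 29. The test, limma-trend (limma 3.58.1, R 4.3.3), took genes that reached 1 CPM in 3 or more of 6 libraries, two-sided, with Benjamini-Hochberg adjustment over all genes. Transcript rows (9.19 to 10.7% of reads) entered only as an alternative. Without molecular identifiers, reads may be copies of 1 molecule. Every member may be named; from each further list up to 4 genes per line with the smallest p could be. The 40 genes, the further lists and the tests were chosen with earlier results of these data known. The fits were tested on simulated data. Alternatives were other scalings, limma-voom, filters, a constant of 1, 1 fit over 18 libraries, the replicate block, transcript rows and leaving out each library.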

Additional observations from a re-analysis of the deposited data

Results flagged for a closer look

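The change with CCS1477 differed most between lines, by the test of the difference itself, for the following members. Each value is the log2 change of the line named first minus that of the line named after it, with its SE and limma's adjusted p. Between H2023 and ABC-1, ENO2 differed by -1.55 ± 0.17 (adjusted p = 1.27e-06) and BNIP3 by -1.35 ± 0.093 (adjusted p = 3.13e-09). PFKP was at -1.96 ± 0.22 there, given as a description without its p-value. Between H460 and ABC-1, SLC2A3 differed by -1.86 ± 0.39 (adjusted p = 0.000666), ALDOC by -1.67 ± 0.21 (adjusted p = 3.95e-06) and BNIP3 by -1.64 ± 0.093 (adjusted p = 2.12e-10). PFKP was at -1.66 ± 0.22 between these lines, also as a description. Between H460 and H2023, PDK1 differed by -1.37 ± 0.15 (adjusted p = 2.14e-06), EGLN1 by 1.21 ± 0.093 (adjusted p = 4.20e-08), ENO2 by 0.97 ± 0.17 (adjusted p = 0.000385) and SLC2A1 by -0.79 ± 0.22 (adjusted p = 0.0111).

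Some of these rest on a line with few reads. SLC2A3 held 0 to 0.602 CPM in the 6 H2023 libraries, so its change was not compared with that of H2023, though these libraries enter the shared spread behind its other difference; PFKP was at 0.511 to 1.02 CPM in the ABC-1 DMSO libraries, and it passed the filter there through the CCS1477 group, so its 2 differences from ABC-1 rest on a gene that entered because it was high with CCS1477. The SLC2A1 difference was measured on the gene row, which held the smaller part of its reads. That of EGLN1 was also measured on the gene row, while transcript rows held 23.5% of its reads in DMSO libraries and 9.43% in CCS1477 libraries of H460.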

How the results depend on the processing

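Of 2582 recomputed changes within a line, 2480 kept their direction and their side of the threshold, 55 lost a call, 28 gained one and 19 turned sign; of 1436 recomputed differences between lines, 1381 stayed, 54 lost a call and 1 gained one. Scaled by library totals, members lower in H460 numbered 9 in place of 14 and glycolytic genes lower there 7 in place of 11. Over all genes, 3063 were lower there in place of 3773. By construction that scaling lies above the deposited one. Leaving out 1 library at a time, members lower in H460 against H2023 ranged from 4 to 8, hypoxia genes that differed there from 5 to 8, and hypoxia genes lower there from 1 to 4. The counts over all genes for these fits are not given here, so these ranges describe the members alone. The values that turned sign belonged to changes that had not passed the threshold. LDHB in H460 was at 0.073 with library totals and -0.046 to 0.027 without 1 library, and PFKP in H460 was at 0.022 with library totals. PFKM in H2023 was at 5.77e-05 with relative log expression scaling, 0.044 with library totals, 0.0071 with TMM, 0.0099 with limma-voom, 0.14 with transcript rows added and -0.048 to 0.034 without 1 library. PFKFB4 in ABC-1 was at 0.015 with library totals and -0.17 to 0.056 without 1 library, SLC2A1 in ABC-1 at -0.018 with transcript rows added and -0.0038 to 0.068 without 1 library, and PDK1 in ABC-1 at -0.064 to 0.086 without 1 library. The cause of these shifts was not tested. A constant of 1 in place of 4 left the SLC2A3 difference between H460 and ABC-1 short of the threshold (limma adjusted p = 0.059). CPM over gene rows alone were 1.10 to 1.11 times those over all rows.

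Same-numbered CCS1477 and DMSO libraries did not deviate together (r = -0.0226 to 0.0631 over genes), so the numbers are not taken as pairs. With the replicate number as a block, 28 members passed in H460 in place of 29, 32 in H2023 in place of 31 and 31 in ABC-1 in place of 33; for the differences, 16 in place of 18 passed between H460 and H2023, 28 in place of 29 between H460 and ABC-1 and 26 in place of 27 between H2023 and ABC-1. Over all genes with this block, 7356 passed in H460 in place of 7584, 8806 in H2023 in place of 8824 and 8768 in ABC-1 in place of 8949. For the differences, 3441 genes in place of 3705 passed between H460 and H2023 and 6114 in place of 6304 between H460 and ABC-1. Depth limits the scarce members: SLC2A3 in H2023, CA9 and ANKRD37 stood near or below 1 CPM.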
